A study of Homo sapiens with 2 samples.

Results

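MAP4 and DNMBP are 2 long genes of the cytoskeleton at which the deposited list of regions from TARBP2 cross-linking held many entries. The members are the deposited regions on the minus strand, the strand of both genes, that overlapped MAP4 at chr3:47892180-48136400 or DNMBP at chr10:101635334-101769676 (hg19) by at least 1 nt. There were 81 of them among 23412 regions in all (0.346%), 50 at MAP4 and 31 at DNMBP. The genes were chosen from these same data, as sites of dense same-strand regions, so the number of regions and the share they cover are descriptions without a test. Whether either gene was bound more than another was not tested.

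The data came from MDA-LM2, an established human breast cancer cell line that was derived for its strong colonisation of the lung. All cells had been transiently transfected with a vector for myc-tagged TARBP2, so the bound RNA is that of added, tagged protein. At 48 hours they were cross-linked with UV light, and RNA attached to the tagged protein was recovered with an anti-myc antibody and sequenced (HITS-CLIP). The study had 1 group of 2 replicates and 1 list of regions for both, with a score of 1 for every region. Values therefore have no replicate error, the depth behind a region is unknown, and no control library was compared. More RNA from a gene and more binding of that RNA cannot be told apart in such a list.

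TARBP2 binds double-stranded RNA, such as the paired arms of a hairpin, and works with the nuclease Dicer when microRNAs are made. It has also been described in the nucleus, bound to introns of unspliced RNA. MAP4 encodes microtubule-associated protein 4, the main microtubule-binding protein of cells other than neurons, which stabilises microtubules until kinases of the MARK family phosphorylate it and release it. DNMBP encodes the scaffold protein Tuba, which binds dynamin through SH3 domains near its amino terminus, activates the GTPase Cdc42 through a Dbl homology domain and binds actin regulators such as N-WASP through its carboxy terminus. Both genes consist mostly of intron, with a few long introns making up most of their length, and fully spliced RNA lacks introns. The list does not say whether a region within an intron came from unspliced RNA or from an intron already removed.

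The position of each region within a gene was read from GENCODE 29, which is on GRCh38, by adding 1 constant number of bases per gene. For DNMBP (ENSG00000107554.16; 99875577 to 100009919 on chromosome 10 of GRCh38) the number was 1759757, and it was the same at both ends of the gene. For MAP4 (ENSG00000047849.21; 47850690 to 48089272 on chromosome 3 of GRCh38) it was 41490, taken at the lower end alone, because the upper bound of the members lay 5638 nt beyond the annotated gene start. Coordinates of regions are hg19 as deposited, counted from 1, and positions of exons and introns in hg19 rest on this shift. Introns are numbered from the start of the gene in the transcript with the longest coding sequence, MAP4-207 with 21 exons and DNMBP-201 with 17.

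No region touched an exon of either gene. Of the 50 MAP4 regions, 49 lay within the annotated gene and all 49 lay wholly within introns. All 31 DNMBP regions lay within introns too. Exons of protein-coding transcripts made up 5.90% of MAP4 and 5.89% of DNMBP, and counting the exons of all 16 MAP4 and 4 DNMBP transcripts raised this to 6.26% and 6.30% with the same count of 0 regions. A count of 0 among 49 regions allows an exonic share of up to 6.12%, 0 among 31 allows up to 9.68%, and 0 among the 80 of both genes allows up to 3.75%. These limits cover counting error only and treat regions as independent. Each limit is 3 counts over the number of regions, a one-sided bound unlike the exact intervals used for other shares. For each gene alone, the limit is above the share of the gene in exons of protein-coding transcripts. The MAP4 limit of 6.12% is too close to the 6.26% of all transcripts to be read as below it. Only with both genes pooled is the limit, 3.75%, below the exon share, 5.90%. The genes were chosen from these same data and regions of 1 gene share their RNA. Whether exons held fewer regions than their share was therefore not tested, and the pooled limit does not decide it. A region can touch an exon with any of its bases, so these shares are not the same quantity. With MAP4 exons moved by 200 nt toward higher coordinates, a setting chosen after the regions had been seen, 1 MAP4 region touched an exon. With moves of 100 nt either way, 0 regions did in both genes.

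The exon edges that came nearest to a region are given here as annotated coding sequence, since they mark how close the regions came to spliced sequence. The nearest in MAP4 was exon 9 (123 nt), whose first bases lay 147 nt downstream of the region from 47956577 to 47956825. The nearest in DNMBP was the last part of exon 4, a long exon of 1992 nt, with 229 nt between it and the region from 101714454 to 101714741. Exon 6 of DNMBP (100 nt) followed, with 253 nt between it and the region from 101666671 to 101667498. Sequences are from GENCODE 29 transcripts, read 5′ to 3′ on the minus strand, and capitals mark the 8 bases of the exon edge that faces the region.
MAP4 exon 9, first 100 bases (chr3:47914840-47914939, GRCh38): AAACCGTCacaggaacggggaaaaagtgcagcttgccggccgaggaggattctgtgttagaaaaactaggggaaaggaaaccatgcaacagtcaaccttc
DNMBP exon 4, last 100 bases (chr10:99955214-99955313, GRCh38): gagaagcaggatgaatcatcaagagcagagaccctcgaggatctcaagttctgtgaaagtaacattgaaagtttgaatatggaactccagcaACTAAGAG
DNMBP exon 6, all 100 bases (chr10:99907995-99908094, GRCh38): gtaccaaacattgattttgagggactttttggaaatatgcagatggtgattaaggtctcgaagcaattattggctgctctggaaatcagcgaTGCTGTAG

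Most regions lay more than 1000 nt from an exon of a protein-coding transcript. The distance from a region to the nearest exon of a protein-coding transcript had a median of 10538 nt in MAP4, with a range of 147 to 35613 nt. In DNMBP the median was 6411 nt and the range 229 to 18173 nt. Within 500 nt of an exon there were 2 of 49 MAP4 regions and 3 of 31 DNMBP regions. More than 10 kb from any exon lay 25 MAP4 regions and 8 DNMBP regions. The 3 longest introns alone made up 71.6% of MAP4 and 71.2% of DNMBP, so much of each gene is itself long intron. The share of gene bases at these distances was not computed, so the counts only describe positions.

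**Figure D1:**
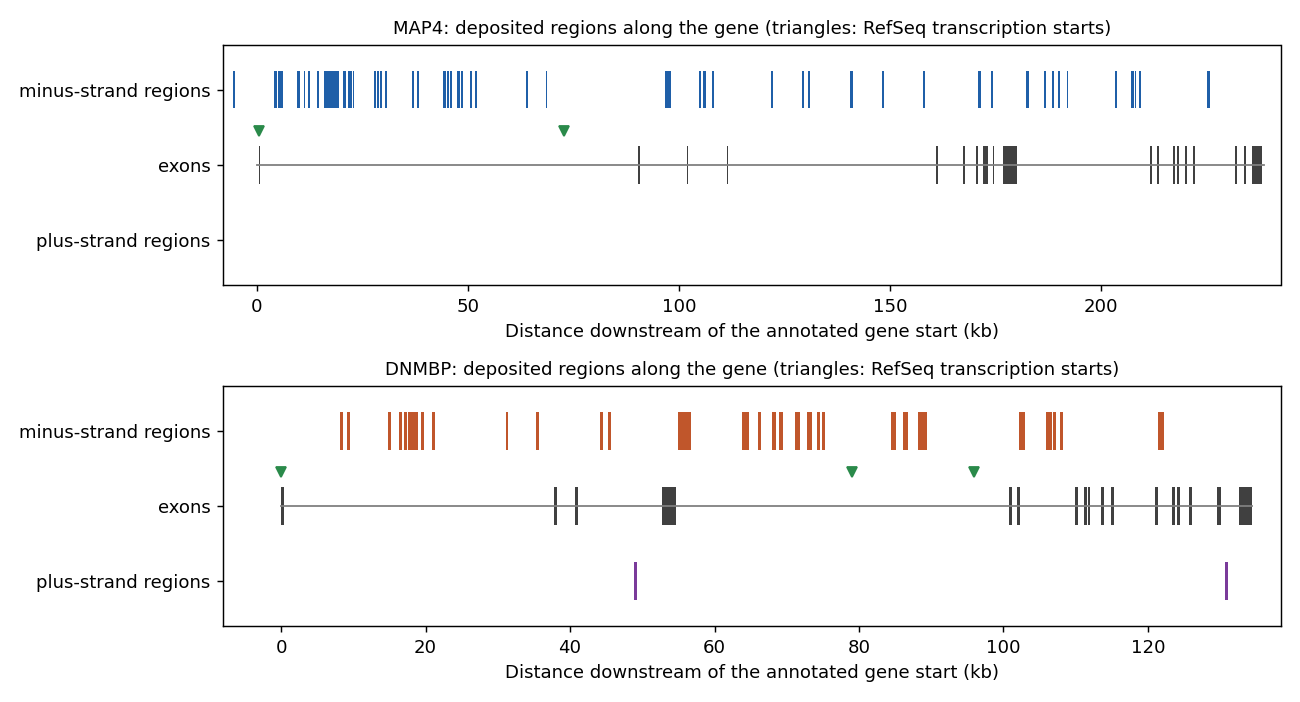
Map of the regions along MAP4 (top) and DNMBP (bottom), with distance downstream of the annotated gene start in kb on the horizontal axis; boxes are minus-strand regions, exons of the longest-coding transcript and plus-strand regions, drawn at least 0.4 kb wide, and triangles are transcription starts listed by RefSeq. The 49 MAP4 and 31 DNMBP regions within the genes fall between exons, plus-strand regions number 0 in MAP4 and 2 in DNMBP, and at the widths drawn some boxes appear closer to exons than they are.

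In MAP4 the regions crowded into the first part of the gene. Intron 1, of 89.9 kb, held 26 of the 49 regions, or 2.89 per 10 kb, and they covered 17.2% of it. The first of them, in the direction of transcription, was a region of 699 nt (48126032 to 48126730) that began 4032 nt from the annotated gene start. The last region of the gene was a lone one of 637 nt in intron 17 (47904898 to 47905534), followed by 12718 nt without a region up to the end of the gene. Of the 10 equal bins of 24.4 kb into which the MAP4 bounds were divided, the 3 nearest the gene start held 9, 9 and 8 regions. The fourth held 1, and the other bins held 5, 4, 2, 5, 6 and 1, in the direction of transcription. The fullest bins thus held 18.0% of the regions each (95% exact Clopper-Pearson interval 8.58 to 31.4%, counting error only), and 0 bins were empty. The interval is for a bin fixed beforehand, and these were picked as the fullest, so it does not measure their error. An even share for 1 of 10 bins lies within it. A single picked bin cannot decide whether the spread was even, and this was not tested. The first bin includes the region outside the annotated gene.

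The longest MAP4 regions also lay in intron 1. The longest was 1827 nt (48112979 to 48114805), and the next, of 1513 nt (48111356 to 48112868), followed it after a gap of 110 nt. Together with this gap they spanned 3450 nt, the longest stretch of regions in the gene when gaps of up to 500 nt were bridged. The others among the 5 longest were 1162 nt (48124665 to 48125826), 883 nt (48108252 to 48109134) and 815 nt (48082567 to 48083381). These 5 regions held 24.2% of the 25.7 kb covered. Farther along the gene no region exceeded 1000 nt, and the longest there was one of 791 nt in intron 2 (48032722 to 48033512).

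The other introns of MAP4 differed in density. Intron 4, of 49.5 kb, held 6 regions or 1.21 per 10 kb, and 4.86% of it was covered. Intron 10, of 31.5 kb, held 9 regions or 2.86 per 10 kb, close to the density of intron 1, but they were shorter and covered 10.7%. Their median length was 328 nt, against 510.5 nt in intron 1 and 362 nt in intron 4. Intron 2, of 11.2 kb, held 2 regions or 1.79 per 10 kb. Intron 3, of 9.45 kb, held 3 regions or 3.17 per 10 kb, above the density of intron 1, and 16.8% of it was covered. The highest density was in introns 8 and 7, where a single region in an intron of 1.01 kb and of 1.54 kb gave 9.89 and 6.48 per 10 kb, values that rest on 1 region each. In all, 8 of the 20 introns held a region, and the longest without one was intron 5 at 6349 nt.

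MAP4 has an inner transcription start within intron 1. RefSeq lists starts that fall, by the shift, at 48130338 and 48057906. Between them, in the 72.4 kb that only RNA from the upstream start contains, lay 26 regions, or 3.59 per 10 kb, covering 21.4%. In the 166 kb downstream of the inner start, which RNA from either start contains, there were 23 regions, or 1.39 per 10 kb, covering 5.97%. The upstream stretch thus had 53.1% of the regions in 30.4% of the gene, and all 3 regions over 1000 nt. Median lengths were 510.5 nt upstream and 361 nt downstream. Which start was in use in these cells was not measured. The longest stretch without a region, 28.1 kb from 48034019 to 48062090, spanned the inner start.

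One member at MAP4 lay outside the annotated gene. This region of 258 nt, from 48136091 to 48136348, was 5328 nt upstream of the nearest MAP4 exon and 52 nt inside the upper bound. Annotated elements within MAP4 introns were near regions without touching them. The pseudogene VPS26BP1 lay 283 nt from the region of 361 nt that starts at 48001173. The small RNA gene RF00019 lay 381 nt from the region of 346 nt that starts at 47972571, and the plus-strand pseudogene AC124916.2 lay 411 nt from the region of 533 nt that starts at 48079813.

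In DNMBP the densest of the long introns lay in the middle of the gene. The 46.1 kb intron 4, after the long coding exon, held 14 of the 31 regions, or 3.04 per 10 kb, with 18.9% covered. Intron 1, of 37.7 kb, held 10 regions or 2.65 per 10 kb, and 11.6% was covered. Intron 6, of 7.93 kb, held 4 regions or 5.05 per 10 kb. They covered 28.3% of it, the highest coverage among the DNMBP introns with more than 1 region. Intron 3, of 11.9 kb, held 2 regions, and intron 12, of 2.19 kb, held the last region of the gene. That region was 846 nt long (101647412 to 101648257) and 12078 nt from the end of the gene. The other 11 of 16 introns held none, the longest of them being intron 11 at 5992 nt.

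Long regions were spread over DNMBP. The longest, of 1405 nt (101750693 to 101752097), lay in intron 1, while those of 1395 nt (101712878 to 101714272) and 1251 nt (101680317 to 101681567) lay near the upstream and the downstream part of intron 4. Regions of 867 nt (101662958 to 101663824, intron 6) and 846 nt (intron 12) completed the 5 longest, which held 34.4% of the 16.7 kb covered. The region of 1395 nt began 698 nt beyond exon 4 and was separated by 181 nt from the region nearest that exon. The first region of the gene was 267 nt long (101761195 to 101761461) and lay 8215 nt from the gene start. With gaps of up to 500 nt bridged, the longest stretch was in intron 1, where 4 regions spanned 3337 nt from 101750065 to 101753401.

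In 10 bins of 13.4 kb, DNMBP had 2, 6, 2, 2, 5, 6, 3, 3, 1 and 1 regions in the direction of transcription. A pair of bins shared the highest count of 6 regions each (19.4% of the regions, exact interval 7.45 to 37.5%), and the final bins held 1 each. This interval too is for a bin fixed beforehand, and an even share for 1 of 10 bins lies within it. Whether the spread in DNMBP was even cannot be decided from picked bins and was not tested. The longest stretches without a region were 13.4 kb (101648258 to 101661625), which includes exons 7 to 12, and 12.8 kb (101667499 to 101680316), which includes exon 5 and exon 6.

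Inner starts of DNMBP lie in intron 4, by the shift at 101690664 and 101673793, and RNA from them lacks the exons for the upstream part of the protein. Upstream of both lay 23 regions over 79.0 kb, or 2.91 per 10 kb, with 13.8% covered. Between them lay 3 regions over 16.9 kb, or 1.78 per 10 kb, with 16.1% covered. Downstream of both, in the 38.5 kb that all these RNAs share, lay 5 regions, or 1.30 per 10 kb, with 8.03% covered. Among these stretches, the one found only in the longest RNA had the most regions per kb in both genes, though in DNMBP not the highest coverage. It is also the part nearest the gene start, and in MAP4 its 26 regions are those of intron 1. Position and choice of start therefore cannot be told apart. Single introns differed, as DNMBP intron 6, downstream of both inner starts, had 5.05 per 10 kb. Counts of 3 and 5 regions are small, and the differences were not tested. No region of either gene overlapped the window of 300 nt that RefSeq-based promoter sequences span at the 5 starts, and the nearest was 3528 nt away.

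**Figure D2:**
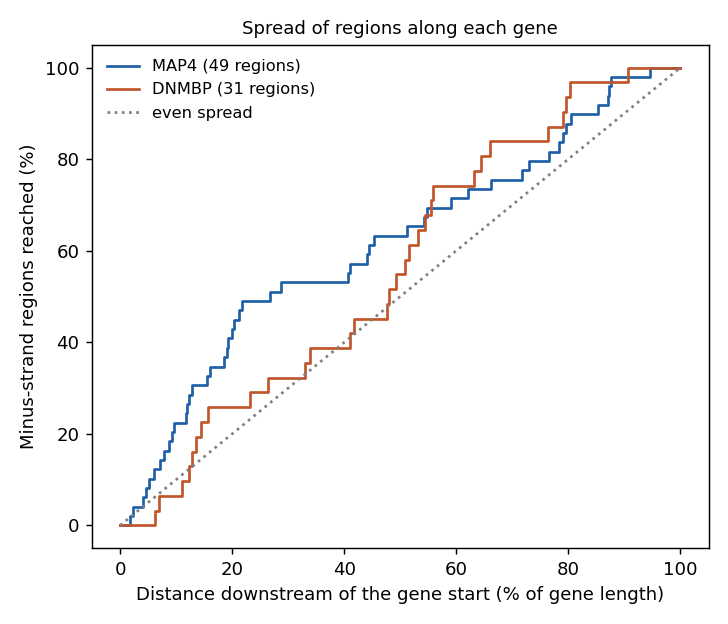
Share of minus-strand regions reached (vertical, %) against distance downstream of the gene start (horizontal, % of gene length) for the 49 MAP4 and 31 DNMBP regions within the annotated genes; the dotted line stands for an even spread. The MAP4 curve rises early, with 53.1% of regions in the first 30.4% of the gene. The DNMBP curve rises above the dotted line within intron 1 and is close to it again where intron 4 starts. Within intron 4 the DNMBP curve rises above the line once more, with 74.2% of regions in the first 58.8% of the gene.

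The spread over introns was alike in both genes on one measure. The 3 longest introns made up 71.6% of MAP4 and held 41 of 49 regions (83.7%), and they made up 71.2% of DNMBP and held 26 of 31 (83.9%). Of the introns under 3 kb, MAP4 had 12, which held 2 regions, and DNMBP had 10, which held 1. These introns are a small part of each gene, and their share of its length was not computed, so these counts only describe positions. The shortest intron with a region was 1011 nt in MAP4 and 2192 nt in DNMBP.

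**Figure D3:**
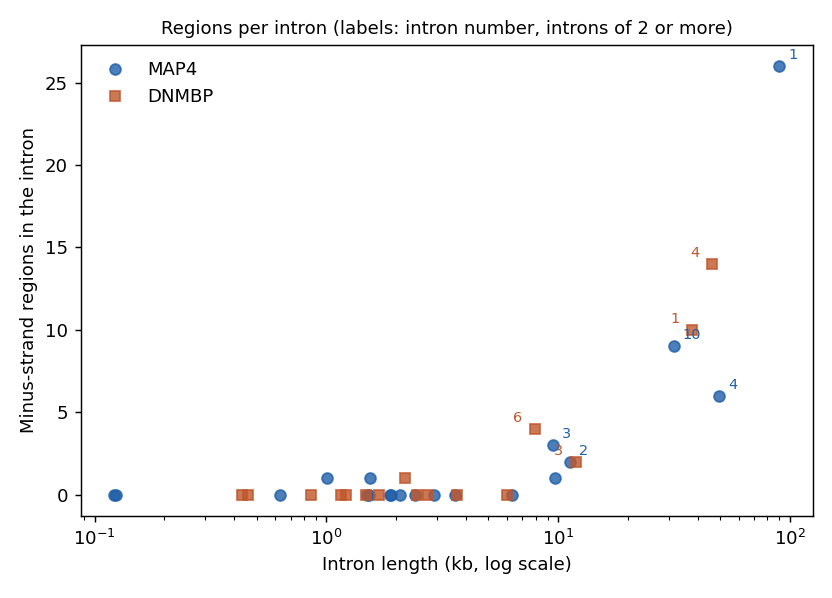
Number of minus-strand regions in each intron (vertical) against intron length in kb (horizontal, log scale), with circles for the 20 MAP4 introns and squares for the 16 DNMBP introns, numbered where an intron held 2 or more regions. Long introns held most regions, with 26 in intron 1 of MAP4 and 14 in intron 4 of DNMBP, and intron 4 of MAP4 held 6 despite its 49.5 kb.

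Both genes had similar numbers of regions for their size. MAP4 had 20.5 regions per 100 kb of its bounds and DNMBP 23.1, and regions covered 10.5% and 12.5% of the bounds. The median gap between successive regions was 1562 nt in MAP4 (range 110 to 28072 nt), and 18 of its 49 gaps were under 1000 nt. In DNMBP the median gap was 1237 nt (range 104 to 13368 nt), and 14 of 30 gaps were under 1000 nt. Gaps over 10 kb numbered 6 in MAP4 and 2 in DNMBP. They divided the MAP4 regions into groups of 25, 2, 5, 6, 7, 4 and 1 in the direction of transcription, the first of which includes the region outside the gene, and the DNMBP regions into groups of 26, 4 and 1. The surroundings of DNMBP were empty and those of MAP4 were not. Within 100 kb on either side DNMBP had 0 regions on both strands, and the next on its strand were 366 kb below (101268730 to 101268978) and 223 kb above (101992195 to 101992859). Within 100 kb below MAP4 there were 8 regions on its strand and 10 on the plus strand, and within 100 kb above there was 1 on each strand. The nearest on its strand were 44.2 kb away (140 nt, 47847799 to 47847938) and 65.0 kb away (577 nt, 48201447 to 48202023).

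Regions of both genes were longer than the typical minus-strand region. The median length was 435 nt in MAP4 (range 222 to 1827 nt) and 401 nt in DNMBP (range 223 to 1405 nt). The 14170 other minus-strand regions on chromosomes 1 to 22 and X had a median of 251 nt. At most 260 nt long were 26.0% of MAP4 and 12.9% of DNMBP regions, against 55.2% of the others. The single most common length of the list was shared by 7 MAP4 regions (14.0%, exact interval 5.82 to 26.7%) and 3 DNMBP regions (9.68%, 2.04 to 25.8%), against 27.2% of the others (26.5 to 28.0%). Regions over 1000 nt numbered 3 in each gene, or 6.0% (1.25 to 16.5%) and 9.68% (2.04 to 25.8%), against 2.37% of the others (2.13 to 2.64%). Regions of 1 gene share their RNA, so these intervals are too narrow for a comparison of genes and no test was made.

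**Figure D4:**
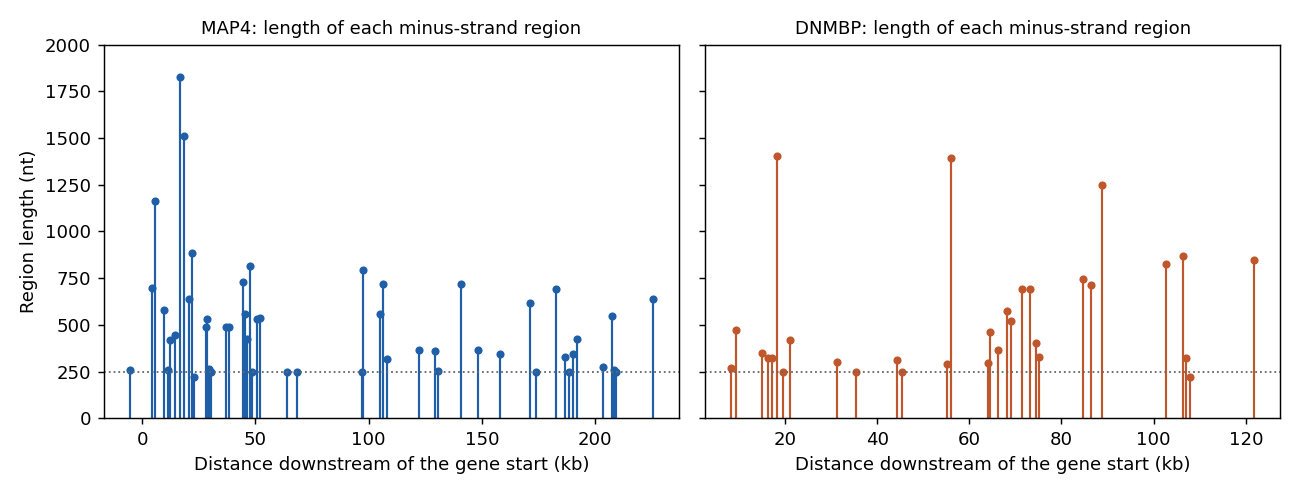
Length in nt (vertical) of each minus-strand region against its distance downstream of the gene start in kb (horizontal) for MAP4 (left) and DNMBP (right), with a dotted line at the most common length of the whole list. The 3 MAP4 regions over 1000 nt stand within intron 1, and the 3 of DNMBP stand apart from each other.

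Longer regions are also found in other dense stretches of the minus strand. When regions at most 10 kb apart were joined, 1 stretch in each gene held at least 20 regions, and 15 other such stretches were found. The median region length was 532 nt in the MAP4 stretch and 382 nt in the DNMBP stretch, against 325 to 672 nt in the others (median 464 nt). Regions covered 26.4% and 16.8% of these stretches, against 15.7 to 58.4% (median 24.7%). Regions of the most common length made up 8.0% and 11.5%, against 0 to 16.7% (median 4.44%). Both genes thus lay within the range of the others on all 3 measures, with DNMBP near the lower end of coverage.

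**Figure D5:**
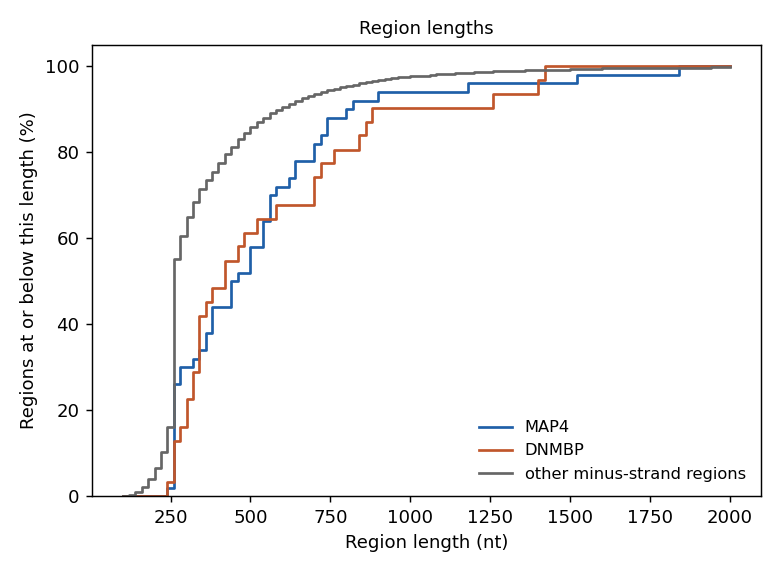
Share of regions at or below a length (vertical, %) against region length in nt (horizontal) for the 50 MAP4 regions, the 31 DNMBP regions and the 14170 other minus-strand regions, read in steps of 20 nt. The curve of the others rises steeply to 55.2% at 260 nt, where MAP4 stands at 26.0% and DNMBP at 12.9%.

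Few regions lay on the plus strand, opposite to both genes, within their bounds. MAP4 had 0 plus-strand regions beside its 50 on the minus strand, which allows a share of up to 6.0%, while the plus strand held 10 regions in the 100 kb below its bounds and 1 in the 100 kb above. DNMBP had 2 beside its 31. One, of 320 nt (101720446 to 101720765), lay opposite intron 3, and the other, of 193 nt (101638791 to 101638983), opposite intron 16, at 584 nt from the nearest exon. Neither overlapped a minus-strand region, and the nearest ones were 3.39 and 8.43 kb away. DNMBP-AS1, an antisense RNA gene of 31.4 kb transcribed from the plus strand of the same locus, had 0 plus-strand regions within it. The region of 320 nt lay 2307 nt beyond its annotated 3′ end. The minus strand opposite DNMBP-AS1 held 11 DNMBP regions, or 3.51 per 10 kb. The sources used here do not say how reads were assigned to strands before deposit.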

How the data were processed

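TARBP2-bound RNA was measured by HITS-CLIP in 2 replicates of 1 group, as the sample titles name them, and no label says whether these were separate cultures. Per the submitters' processing notes, reads were aligned with Bowtie to hg19. The region caller, its filters, the use of replicates and the handling of reads with several alignments are not stated. The authors deposited 1 list of stranded regions whose score is 1 throughout, so depth is unknown.

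The members and lists were chosen with earlier results of these data known. Scripts took minus-strand regions overlapping the stated bounds by at least 1 nt, and placed them on GENCODE 29 (GRCh38) by 1 constant shift per gene. Within each gene, text names the 5 longest regions, the first and last, exonic ones, the densest and emptiest introns and plus-strand regions. Other regions were named after their values were seen. Shares have 95% Clopper-Pearson intervals, and a count of 0 a limit of 3 counts. Other cytoskeleton genes planned for comparison were not analysed here, as no annotation of hg19 was used. The interval functions were tested on simulated data. Python 3.11.15, numpy 2.4.6, scipy 1.17.1 and matplotlib 3.10.9 were used.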

Additional observations from a re-analysis of the deposited data

How the results depend on the processing

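Of 42 alternative values, 39 stayed within the limits set. These were 1.5 times the reported count, median or covered share, and the 95% exact interval of the share in the fullest bin. Some of the 39 could not have moved. With 0 regions touching an exon, midpoints or exons of the longest-coding transcript also give 0. The DNMBP bounds are those of the annotated gene. Shares in the fullest of 20 bins were set against the interval for 10 bins. The count of 39 thus overstates stability. Bridging gaps of up to 500 nt left 40 MAP4 and 23 DNMBP stretches and raised, by construction, the MAP4 median gap from 1562 to 3417 nt and the DNMBP median length from 401 to 694 nt. Moving the MAP4 exons by 200 nt toward higher coordinates, chosen after the regions had been seen, gave 1 exonic region in place of 0. Moves of 100 nt either way and of 200 nt toward lower coordinates gave 0, as did all 4 moves in DNMBP. No paired analysis was possible because the list has a single group and no column for a replicate, and leaving out a replicate was not possible either. Positions against exons rest on a constant shift, which for MAP4 was read at 1 end of the gene.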

Other observations

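Each region name carries a number, ascending with position on its strand, and not every number is listed. At MAP4 the names ran from 90003 to 90104, and 50 of these 102 numbers (49%, 95% exact interval 39.0 to 59.1%) were listed. At DNMBP they ran from 16914 to 16975, and 31 of 62 (50%, 37.0 to 63.0%) were listed. Over the whole minus strand, 15.1% of numbers were listed on chromosome 3 and 19.2% on chromosome 10. The ends of each gene's range are listed numbers by choice, and the genes were chosen for their many listed regions, so these shares are descriptions. On the plus strand, 20 numbers without a listed region stood between the regions that flank MAP4, the one ending at 47882437 and the one starting at 48147814. The sources used here do not say where those 20 lay or why a number is not listed.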
